A study of Homo sapiens with 4 samples.

Results

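The regions described here are those annotated to the linker histone H1 genes, found as all rows of the authors' deposited ATAC-seq table whose gene symbol was HIST1H1A, HIST1H1B, HIST1H1C, HIST1H1D, HIST1H1E, HIST1H1T, H1FX or H1FOO, whatever their annotation. There were 10 such regions among the 58127 of the table, and they belonged to 7 of these 8 genes. HIST1H1T had no row. ATAC-seq reads out open chromatin by transposase insertion and was run in MCF10A, a human breast epithelial line that does not form tumours. The control libraries are labelled shNC and the others shG8d, a knockdown of the long noncoding RNA SNHG8d. Each group had 2 libraries, lettered A and B, all from the same cell line. The labels do not say whether A and B were separate cultures, so the p-values measure only the spread between libraries, which may be technical. The title of the study pairs SNHG8d with histone H1 and chromatin condensation, and the question asked here was whether the H1 genes themselves differed in accessibility.

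Linker histones bind nucleosomes where DNA enters and leaves the core particle and promote the folding of chromatin. Most somatic subtypes are encoded by intronless genes in the large histone cluster on chromosome 6, are transcribed during S phase and give mRNAs that end in a stem-loop instead of a poly(A) tail. HIST1H1A encodes H1.1, HIST1H1C H1.2, HIST1H1D H1.3, HIST1H1E H1.4, HIST1H1B H1.5 and HIST1H1T the testis form. H1FX and H1FOO lie outside that cluster, and encode H1.10 and the oocyte form.

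Promoters of the S-phase H1 genes share much of a layout. Sequences are shown here for the 5 H1 genes whose start site lay in or beside a measured region, including H1FX, which is not an S-phase gene. Each line is the 150 bases before the transcription start, 5′ to 3′ on the gene's strand, from RefSeq (GRCh38.p14). Capitals mark matches on that strand to AAACACA (the H1 box), CCAAT and TATAA.
HIST1H1D: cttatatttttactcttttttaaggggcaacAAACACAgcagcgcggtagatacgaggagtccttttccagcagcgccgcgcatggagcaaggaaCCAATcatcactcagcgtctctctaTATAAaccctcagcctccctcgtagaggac
HIST1H1B: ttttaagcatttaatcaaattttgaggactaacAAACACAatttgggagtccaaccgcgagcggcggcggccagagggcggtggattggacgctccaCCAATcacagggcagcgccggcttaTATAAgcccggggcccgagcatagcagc
HIST1H1C: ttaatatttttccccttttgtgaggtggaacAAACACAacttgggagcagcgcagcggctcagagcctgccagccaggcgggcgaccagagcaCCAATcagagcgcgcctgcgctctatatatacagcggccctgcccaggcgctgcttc
HIST1H1E: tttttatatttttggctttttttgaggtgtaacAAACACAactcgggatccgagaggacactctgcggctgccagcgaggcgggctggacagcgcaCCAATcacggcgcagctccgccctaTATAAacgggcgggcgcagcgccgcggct
H1FX: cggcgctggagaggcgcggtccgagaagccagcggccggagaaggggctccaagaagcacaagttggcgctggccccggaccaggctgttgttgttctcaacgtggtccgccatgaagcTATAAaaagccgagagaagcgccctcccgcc
These stretches lie at chr6:26234988-26235137, chr6:27867589-27867738 and chr6:26056471-26056620 on the minus strand for HIST1H1D, HIST1H1B and HIST1H1C. They lie at chr6:26156179-26156328 on the plus strand for HIST1H1E and at chr3:129316287-129316436 on the minus strand for H1FX.

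The H1 box started 117 or 119 bases before the start site in all 4 cluster genes shown, and CCAAT started 53 to 57 bases before it. TATAA started 28, 29 or 30 bases before it in HIST1H1B, HIST1H1E and HIST1H1D and was not found in HIST1H1C on either strand. The HIST1H1C sequence holds tatatata instead, which the exact search does not match. H1FX held TATAA 31 bases before its start and neither of the other motifs. All 8 H1 genes matched the promoter table. In HIST1H1T the H1 box started at 105 bases, and HIST1H1A had CCAAT and TATAA with no H1 box in this window. Over 35116 promoter windows of the same length, searched on both strands, 2.71% held AAACACA, 23.5% CCAAT, 12.1% TATAA and 0.134% all 3. In HIST1H1B the reverse-strand match to TATAA overlapped the forward one. A match is a string of letters and not a measured binding site.

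The group labels are exchanged between parts of the table, which decides how any direction can be read. Each deposited value is a whole multiple of what 1 read is worth in that library. The libraries worth 0.842 (A) and 0.807 (B) normalized counts per read are labelled shG8d in the common regions but shNC in the regions specific to shNC or to shG8d. Those worth 1.21 and 1.17 carry the other label each time. They are called the deeper pair (8124488 and 8111839 reads in regions) and the shallower pair (4457248 and 4344212) below, and which labels are right was not settled. These names go by reads in regions only, and total reads sequenced were not used here. Of the 10 H1 regions, 3 are common, 5 shNC-specific and 2 shG8d-specific. All 10 passed the filter on low values, with 17 to 146 reads per library. As a check of the cell line, 10 of 11 epithelial markers had a promoter region (TP63 did not), as had 1 of 3 fibroblast markers (PDGFRA) and 0 of those of blood, endothelium and neurons.

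Accessibility was lower in the deeper pair at 3 of the 10 H1 regions and higher at 0 (limma, adjusted p under 0.05 over all regions). With an unadjusted p under 0.05 there were 4 lower and 0 higher. The 3 were the HIST1H1D promoter, the end of HIST1H1C and a distal intergenic region annotated to HIST1H1A. The HIST1H1A region is shG8d-specific, a set where 70.0% of regions were called lower and 2738 of 2755 estimates were below 0. HIST1H1D and the end of HIST1H1C are common regions, of which 15.0% were called lower. Of all regions 23.6% passed, 12.4% lower and 11.1% higher, and 10 regions are too few to set the H1 count apart from that background. By column label, HIST1H1D and the end of HIST1H1C were lower under shG8d, while the HIST1H1A region was higher under shG8d, because it lies in the other part of the table. The median log2 difference (deeper minus shallower, on log2(normalized count + 1)) was −0.24 over the H1 regions against −0.02 over all regions. The 2 pairs did not overlap at 6 of the 10, against 63.4% of all regions. In these bulk libraries fewer cells with an open region and less insertion per cell cannot be told apart.

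**Figure D1:**
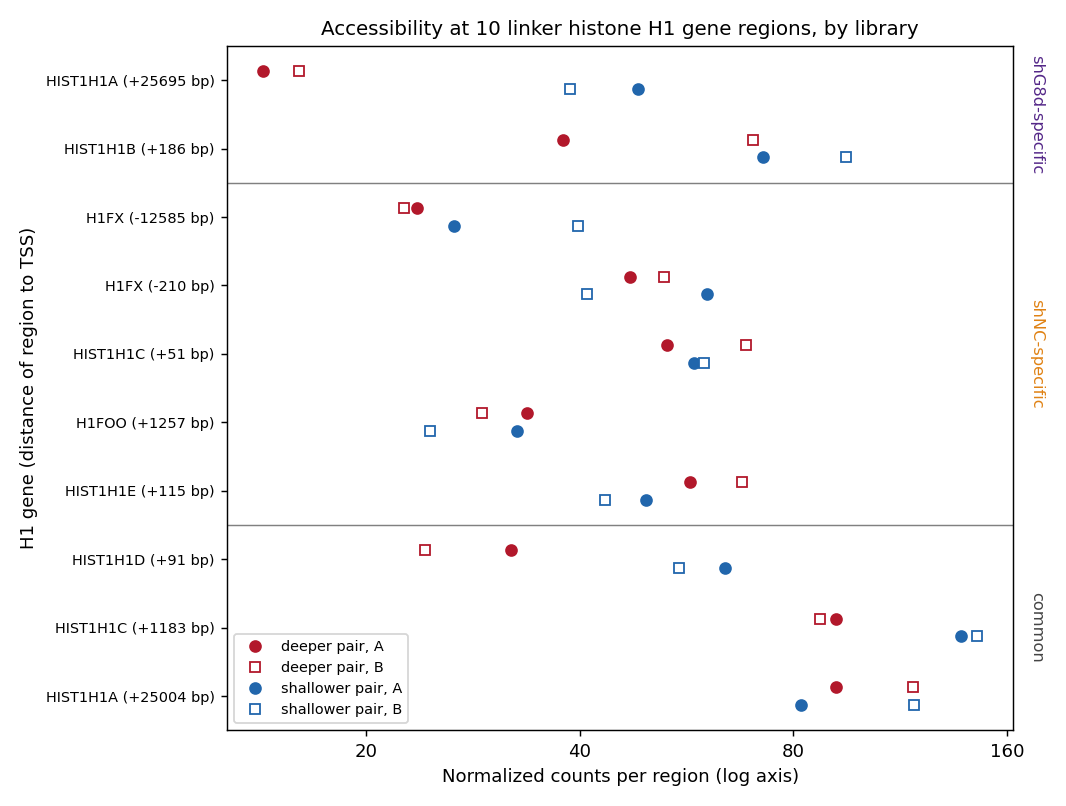
Normalized counts (log axis) in each of the 4 libraries at the 10 H1 gene regions, grouped by the set the table puts them in (common, shNC-specific, shG8d-specific); circles are replicate A, squares replicate B, red the deeper and blue the shallower pair. At HIST1H1D both deeper libraries (32.0 and 24.2) lie to the left of both shallower ones (64.0 and 55.1), while at the HIST1H1C promoter the pairs overlap.

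HIST1H1D, which encodes H1.3, had the clearest promoter difference. The common region 91 bp past its TSS (annotated as promoter, chromosome 6) had 32.0 and 24.2 normalized counts in deeper A and B, labelled shG8d there, and 64.0 and 55.1 in shallower A and B. Both deeper libraries were lower than both shallower ones, also in plain reads (38 and 30 against 53 and 47), although the deeper pair had more reads over all regions. Means were 28.1 ± 5.5 and 59.5 ± 6.3 (SD, n = 2 each). HIST1H1D thus had a log2 difference of −1.07 (SE 0.309, 95% interval −1.71 to −0.42, limma adjusted p = 0.0182). Of all common regions 15.0% were called lower. Without deeper replicate B the estimate was −0.87 and no longer passed (limma adjusted p = 0.148). With the other libraries left out in turn it lay between −1.26 and −0.96 and stayed past the threshold.

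HIST1H1B, encoding H1.5, came next in size among the start-site regions but did not pass. Its shG8d-specific region lies in the gene's only exon, 186 bp past the TSS, with 37.9 and 70.2 normalized counts in deeper A and B, labelled shNC there, and 72.5 and 94.9 in shallower A and B. The deeper libraries differed from each other by more than the pair means of 54.0 and 83.7 did, and deeper B reached almost to shallower A without overlap. In plain reads, of which the deeper pair had more over all regions, the pairs did overlap (45 and 87 against 60 and 81). Of all shG8d-specific regions 70.0% were called lower, and their median log2 difference was −1.20. The log2 difference of HIST1H1B was −0.67 (SE 0.289, 95% interval −1.28 to −0.07, limma adjusted p = 0.0967). It was −0.24 without deeper replicate A (limma adjusted p = 0.725) and −1.11 without deeper replicate B, where it passed (limma adjusted p = 0.0347). It also passed without shallower replicate A (−0.87 for HIST1H1B, limma adjusted p = 0.0108).

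HIST1H1C, encoding H1.2, passed the threshold at its end and not at its start, which by itself does not show that the regions differ. The shNC-specific promoter region, 51 bp past the TSS, had 53.0 and 68.6 normalized counts in deeper A and B and 58.0 and 59.8 in shallower A and B. These values overlap, and the log2 difference was 0.03 with a 95% interval from −0.51 to 0.58 (limma adjusted p = 0.941). The common region at the gene's end, 1183 bp past the TSS, had 91.7 and 87.2 in deeper A and B, labelled shG8d there, against 137.7 and 145.3. Each pair was tight and the pairs lay apart, at 89.4 ± 3.2 and 141.5 ± 5.3 (SD over 2 libraries). The log2 difference was −0.66, with an SE of 0.202 and an adjusted p of 0.0243 in limma. The call was lost without deeper replicate A (−0.69, limma adjusted p = 0.143), without deeper replicate B (−0.62, 0.176) and without the mean-variance trend (−0.66, 0.0877). Within a library, the end stood above the promoter by 0.78 and 0.34 (log2) in deeper A and B and by 1.23 and 1.27 in shallower A and B. That contrast, chosen after its values were seen, differed by −0.69 with an exact two-sided permutation p of 0.333, the smallest that 2 against 2 libraries allow, so that this test could not pass.

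HIST1H1E, encoding H1.4, was the S-phase H1 gene with the highest estimate. The shNC-specific region in its only exon, 115 bp past the TSS, had 57.2 and 67.8 normalized counts in deeper A and B, labelled shNC there, and 49.5 and 43.4 in shallower A and B. Both deeper libraries were above both shallower ones. At 0.42 (log2, SE 0.272) HIST1H1E missed the threshold (limma adjusted p = 0.277), with a 95% interval that ran from −0.15 to 0.99. The estimate had the opposite sign to that of HIST1H1D, although its interval includes 0. The HIST1H1D region is common and that of HIST1H1E shNC-specific, with medians of −0.12 and 0.24 over all regions of those sets. Both genes hold the H1 box, CCAAT and TATAA at nearly the same places, and a link of these motifs to accessibility was not tested. Set against HIST1H1E within each library, HIST1H1D stood at −0.82 and −1.45 (log2) in deeper A and B and at 0.36 and 0.34 in shallower A and B. The exact two-sided permutation p of this contrast, also chosen after seeing values, was 0.333, again the smallest possible, and stayed 0.333 when adjusted over the 3 within-library contrasts computed.

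HIST1H1A, encoding H1.1, a subtype of restricted tissue distribution, had 2 intergenic regions and no start-site region in the table. They lie 25004 and 25695 bp past its TSS, 691 bp apart, on chromosome 6. The nearer, a common region, had 91.7 and 117.8 normalized counts in deeper A and B and 82.1 and 118.3 in shallower A and B, with a log2 difference of 0.08 (95% interval −0.41 to 0.56, limma adjusted p = 0.843). The farther, shG8d-specific, had 14.3 and 16.1 in deeper A and B, labelled shNC there, and 48.3 and 38.7 in shallower A and B. Those are 17 and 20 reads against 40 and 33, and the pairs do not overlap. Its log2 difference of −1.45 (SE 0.368, 95% interval −2.22 to −0.68, limma adjusted p = 0.00875) was the lowest among the H1 regions, in a set where 70.0% of regions were called lower. Without deeper replicate A the adjusted p from limma was 0.0727, at −1.37. The 2 regions differed by −1.52 in their within-library contrast (exact two-sided permutation p = 0.333, the smallest possible). They come from different sets, with medians of −1.20 over all shG8d-specific and −0.12 over all common regions. Neither lies inside the gene, and both are assigned to HIST1H1A by the nearest start site. A link of either region to HIST1H1A was not tested.

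**Figure D2:**
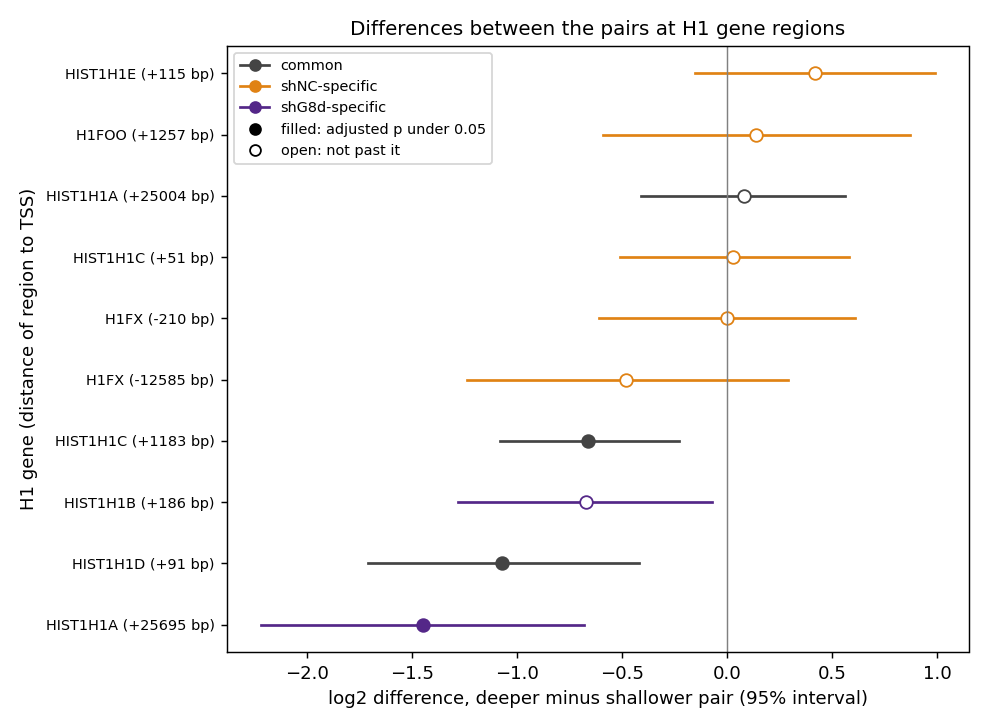
Log2 difference between the deeper and the shallower pair at each H1 gene region with its 95% interval from limma, coloured by region set; filled points passed an adjusted p of 0.05. Estimates run from −1.45 at the distal HIST1H1A region to 0.42 at HIST1H1E, and 6 of the 10 intervals include 0.

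H1FX, which encodes the replication-independent H1.10, had 2 shNC-specific regions on chromosome 3. The promoter region 210 bp upstream had 47.1 and 52.5 normalized counts in deeper A and B, labelled shNC, and 60.4 and 41.0 in shallower A and B. Both deeper values fell between the shallower ones, and the log2 difference was −0.0019 (95% interval −0.61 to 0.61, limma adjusted p = 0.997). An intergenic region of H1FX 12585 bp upstream had 23.6 and 22.6 against 26.6 and 39.8 (log2 difference −0.48, limma adjusted p = 0.363). H1FOO, the oocyte form, had 1 shNC-specific region, in an intron 1257 bp past the TSS. It held 33.7 and 29.1 normalized counts in deeper A and B and 32.6 and 24.6 in shallower A and B, with a log2 difference of 0.14 (95% interval −0.59 to 0.87, limma adjusted p = 0.810).

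By set, in the common set 2 of 3 H1 estimates were below 0 (median −0.66, all common regions −0.12), and in the shG8d-specific set both were, as were 2738 of all 2755 regions of that set (median −1.20). In the shNC-specific set 2 of 5 were below 0 and the median was 0.03, against 0.24 over all regions of that set. There 0 of 5 H1 regions passed in limma, and 0 had an unadjusted p under 0.05, beside 14.2% of the set called. How the authors formed these sets is not given in the sources used here, so a region's set and its difference may rest on the same libraries. Region widths were not used here, so levels are not ranked between H1 genes. In the order of differences, neighbours were within each other's 95% intervals all along, from the distal HIST1H1A region to HIST1H1E. By the authors' deposited table, among the 10 H1 regions 3 had an unadjusted p under 0.05, against 24.2% of all regions. They were the same 3, and the authors' deposited table gives them log2 fold changes (shG8d over shNC as labelled) of −1.08 for HIST1H1D, −0.66 for the end of HIST1H1C and 1.51 for the distal HIST1H1A region.

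**Figure D3:**
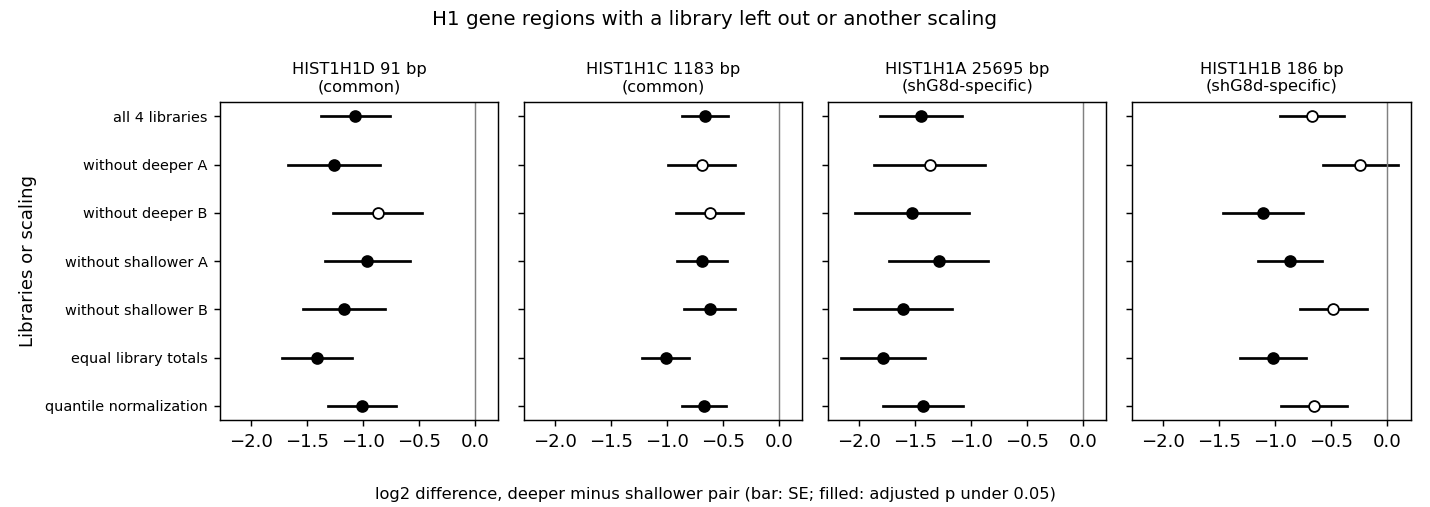
Log2 difference (deeper minus shallower, bar: SE) at the 3 called H1 regions and at HIST1H1B with all 4 libraries, with each library left out, and under 2 other scalings; filled points passed an adjusted p of 0.05. All estimates lie below 0, and each of the 4 regions changes side of the threshold in at least 1 setting.

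Scaling reads to equal library totals moved the median of all regions to −0.36 and the share called lower from 12.4% to 28.1%. With that general shift 4 H1 regions were lower and 0 higher, while quantile normalization left 3 lower. The H1 region added was that of HIST1H1B (−1.02, limma adjusted p = 0.0119). Higher calls made up 47.3% of all calls in the main scaling and 13.6% under equal totals. HIST1H1D was then at −1.41 and HIST1H1E at 0.07, so HIST1H1E kept a value above that median in both scalings. With each library left out in turn, 1, 2, 4 and 3 H1 regions were lower, for deeper A, deeper B, shallower A and shallower B. Of all regions 4.44%, 6.41%, 16.2% and 11.7% were lower in the same fits.

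The 4 cluster H1 genes with a start-site region sit among core histone genes with mostly negative promoter estimates. Ordered by RefSeq, with 1 promoter region per gene, the stretch from HIST1H3A to HIST1H2AM held 48 genes with such a region. Genes without one were left out, so neighbours here are neighbours in this order only. Of its 28 core histone genes, 10 were lower and 0 higher (limma, with 13 and 0 at an unadjusted p under 0.05), and 27 estimates were below 0 (median −0.50). Over all 45 core histone regions on chromosome 6, of any annotation, 12 were lower and 1 higher (median −0.40), beside 12.4% and 11.1% of all regions. Among all 11488 genes with a promoter region 10.7% were lower and 20.3% higher, with a median of 0.14. HIST1H1D, at −1.07, had HIST1H2AE (−0.51, lower) and HIST1H3F (−0.40, not past the threshold) beside it. HIST1H1B lay between HIST1H2AL (−0.92, lower) and HIST1H2AM (−0.29, not past it). HIST1H1E and HIST1H1C, at 0.42 and 0.03, were 2 of only 3 histone genes of the stretch above 0, the other being HIST1H4D at 0.30. The 95% intervals of all 3 include 0. The region at the end of HIST1H1C, 1183 bp past the TSS and so not counted as a promoter region, was lower, at −0.66. The neighbours of HIST1H1E (HIST1H2AC and HIST1H2BD) and of HIST1H1C (HIST1H3C and HIST1H4C) were all below 0. HIST1H1E, HIST1H1C and HIST1H4D lie in shNC-specific regions, as do HIST1H3C, HIST1H4E and HIST1H2BH, which were below 0. Over all shNC-specific regions 7180 of 21459 estimates were below 0, with a median of 0.24. Whether the sign goes with the region set was not tested. With equal totals, which lower all estimates, HIST1H1C (−0.31) and HIST1H4D (−0.04) were also below 0. The core histone count fell to 1 without deeper replicate A and 4 without deeper replicate B, and was 22 with equal totals and 3 without the mean-variance trend. Over all genes with a promoter region 3.18%, 5.65%, 25.7% and 5.23% were lower in those fits, so without deeper replicate A the core histone share (3.57%) was near that of all genes.

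**Figure D4:**
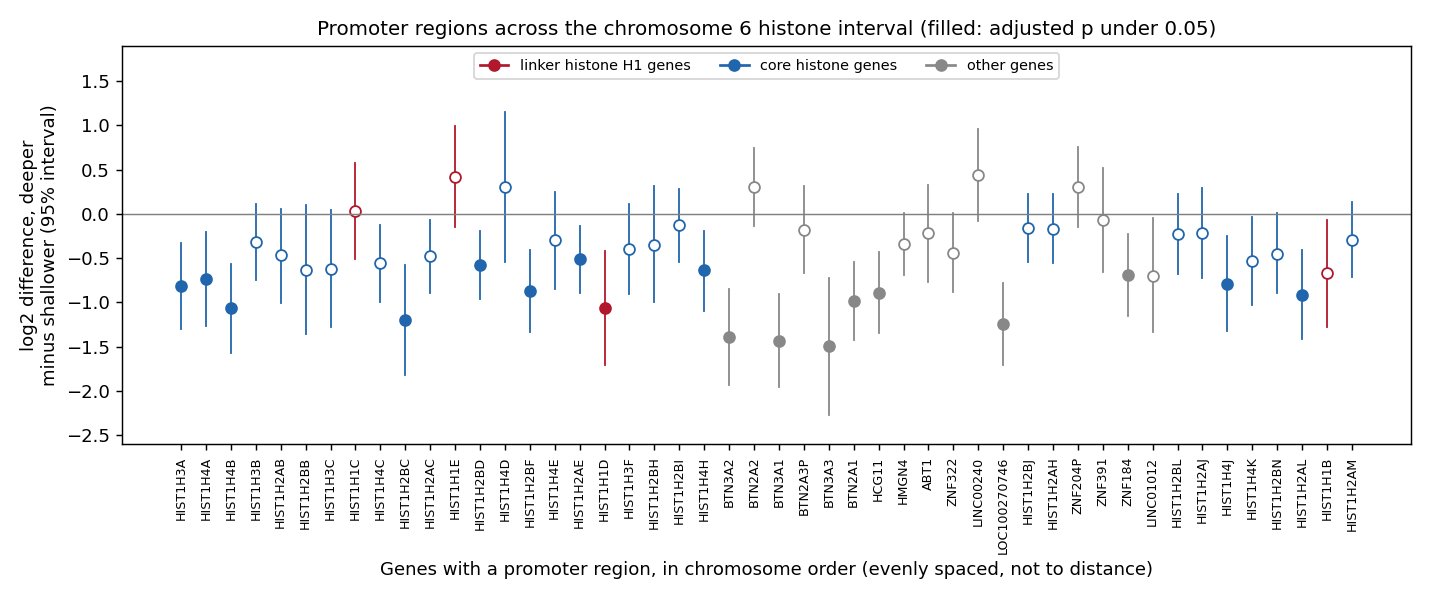
Log2 difference (deeper minus shallower, 95% interval) at 1 promoter region per gene for the 48 genes from HIST1H3A to HIST1H2AM in chromosome order, evenly spaced; red are H1, blue core histone and grey other genes, and filled points passed an adjusted p of 0.05. Of the 28 core histone genes 27 lie below 0, as do 13 of the 16 other genes, while HIST1H1E and HIST1H1C do not. The intervals of HIST1H1E and HIST1H1C include 0, and the HIST1H1C region 1183 bp past its TSS is not shown.

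Of the 16 other genes of the stretch 7 were lower, against 11.8% of 585 chromosome 6 genes outside it. In this order of genes with a promoter region, none of the 16 lies next to HIST1H1D or HIST1H1B, whose neighbours are core histone genes.

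By a rule of smallest distance over the 4 libraries after subtracting each region's mean, the histone promoters most like HIST1H1D among 47 compared were H2AFJ, HIST1H2AL and HIST1H4J, at distances of 0.21, 0.31 and 0.34 on the log2 scale. Their log2 differences were −1.0, −0.92 and −0.79, a likeness to HIST1H1D that the rule itself selects for. H2AFJ, a replication-independent H2A variant gene, lies outside the chromosome 6 cluster.

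Among genes that act on histone gene expression, 16 of 18 listed had a promoter region. In limma, 5 of these promoters were higher and 0 lower in the deeper than in the shallower pair, with 6 and 1 at an unadjusted p under 0.05. Over all genes 20.3% were higher and 10.7% lower, and the medians were 0.13 for the list and 0.14 for all genes. HINFP, an activator of histone H4 genes, was at 1.01 (SE 0.187, limma adjusted p = 0.00116). CCNE1, encoding cyclin E1, whose kinase activates histone transcription, was also at 1.01 (SE 0.220, limma adjusted p = 0.00357). SLBP, encoding the stem-loop binding protein of histone mRNAs, was at 0.74 (SE 0.188, limma adjusted p = 0.00873). At these genes, all with common regions, the label of the deeper pair is shG8d. Only HINFP passed with every library left out in turn. The median of the list was 0.20, 0.27, 0.34 and 0.01 without deeper A, deeper B, shallower A and shallower B. Over all genes it was 0.17, 0.11, 0.21 and 0.06 in the same fits. With equal totals 2 were higher and 3 lower, beside 8.58% and 25.7% of all genes. Without the mean-variance trend the counts were 2 and 0, beside 10.3% and 5.23%.

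Among genes whose products chaperone, modify, compete with or otherwise act with H1, 18 of 22 listed had a promoter region. Of these 4 were higher (22.2%) and 3 lower (16.7%), near the 20.3% and 10.7% over all genes (median −0.0024 for the list). PTMA, encoding prothymosin alpha, an H1 chaperone, was higher at 1.65 in a shNC-specific region (SE 0.251, limma adjusted p = 0.000242). DFFB, encoding the apoptotic nuclease that H1 stimulates, and HMGB2, an HMG-box protein, were higher in common regions (1.08 and 0.66, limma adjusted p = 0.00664 and 0.0197). HMGA2, an AT-hook protein, PARP1, the ADP-ribose polymerase, and CBX5, encoding HP1 alpha, were lower in common regions (−0.71, −0.70 and −0.60, limma adjusted p = 0.0352, 0.0335 and 0.0168). The deeper pair is labelled shNC at PTMA and shG8d at the other genes named here. By column label PTMA was therefore higher under shNC, while DFFB and HMGB2 were higher under shG8d. PTMA and DFFB passed with every library left out, while HMGB2, HMGA2 and PARP1 each passed in 1 of the 4 such fits and CBX5 in 2. The median of the list was 0.10, −0.08, 0.03 and 0.04 without deeper A, deeper B, shallower A and shallower B. Over all genes it was 0.17, 0.11, 0.21 and 0.06 in the same fits. Under equal totals 2 were higher and 6 lower, beside 8.58% and 25.7% of all genes. Without the mean-variance trend the counts were 1 and 0, beside 10.3% and 5.23%.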

How the data were processed

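ATAC-seq was run in 4 libraries of MCF10A cells, 2 labelled shNC and 2 labelled shG8d. CASAVA 1.4 and the build hg19 are named in the submitters' processing notes. Which aligner, peak caller and test were used is not given in the sources used here. Per region the authors' deposited table holds a log10 normalized count for each library, a log2 fold change and an unadjusted p-value, per the file headers. Raising 10 to the log10 values gave whole multiples of 1 step per library for 100% of values (within 0.05 reads), which identified libraries across region sets.

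The design assumed normalized counts, and the values were returned to that scale. limma 3.58.1 in R 4.3.3, with a mean-variance trend, was fitted over all 58127 regions on log2(normalized count + 1), taking the deeper pair against the shallower and adjusting by Benjamini-Hochberg. The filter (10 normalized counts in 2 libraries) removed no region. A count of 3 reads, the limit a count of 0 allows, is 2.42 to 3.62 normalized counts, for counting error only. The fit was tested on simulated data. A promoter region is one annotated as promoter or within 1000 bp of a TSS, the highest by mean signal per gene. RefSeq (GRCh38.p14) gave sequences, names and gene order, and no coordinate was converted. Region starts and ends were not used here, so regions are placed by chromosome, gene and distance to the TSS.

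One gene of the family is not reported here. All other H1 genes and regions are named, with values per library for start-site regions and for regions past the threshold in any fit that leaves out a library. From the 2 other lists up to 3 genes each way, by size of difference, are named. The H1 genes and these lists were chosen with earlier results of these data known.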

Additional observations from a re-analysis of the deposited data

How the results depend on the processing

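Pseudocounts of 0.5 and 8, no filter, a filter at 30 normalized counts, quantile normalization and separate fits of common and specific regions each left the same number of H1 regions called, 3. Over single H1 regions, 111 of 129 alternative estimates kept direction and side of the threshold. Regions called over the whole table, 13697 with all libraries, lay between 4629 and 19153 with a library left out and were 8409 without the mean-variance trend. H1 regions called, all lower in the deeper pair, lay between 1 and 4 with a library left out and were 4 with equal library totals and 2 without the trend. With a library left out, the lone library is assumed to vary like the complete pair.

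Estimates that changed sign were near 0 and did not pass in either direction. The cause was not tested, except that equal totals lower all estimates (median of all regions −0.36 against −0.02). Without deeper replicate A this was the H1FX promoter (0.07). Without deeper replicate B they were HIST1H1A at 25004 bp (−0.10) and the HIST1H1C promoter (−0.15). Without shallower replicate A they were HIST1H1A at 25004 bp (−0.19) and the H1FX promoter (0.27). Without shallower replicate B it was H1FOO (−0.06). With equal totals they were HIST1H1A at 25004 bp (−0.27), the HIST1H1C promoter (−0.31) and H1FOO (−0.20). With quantile normalization it was the H1FX promoter (0.06). With each library left out in turn, estimates ran from −0.19 to 0.34 for HIST1H1A at 25004 bp, −0.15 to 0.22 for the HIST1H1C promoter, −0.28 to 0.27 for the H1FX promoter and −0.06 to 0.33 for H1FOO.

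Libraries of the same letter share only a letter. The A-minus-B deviations of the pairs correlated at −0.00393 over regions. With the letter as a replicate block 15308 regions and 3 H1 regions were called.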

Other observations

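The chromosome 6 stretch that holds the H1 and core histone genes also contains 16 other genes with a promoter region, and most of these had negative estimates too (13 of 16). Of the 16, 7 were lower and 0 higher (limma, with 8 and 0 at an unadjusted p under 0.05), with a median log2 difference of −0.56, against 11.8% lower and a median of 0.04 over 585 chromosome 6 genes outside the stretch. The 6 butyrophilin genes among them, of a family whose products regulate T cells, held 4 of the lower ones. BTN3A3 was at −1.49 (SE 0.371, limma adjusted p = 0.00790), BTN3A1 at −1.44 (SE 0.250, limma adjusted p = 0.000717) and BTN3A2 at −1.39 (SE 0.258, limma adjusted p = 0.00120). BTN2A1 was at −0.99 (limma adjusted p = 0.00337), whereas BTN2A2 at 0.30 (limma adjusted p = 0.322) and BTN2A3P at −0.18 (limma adjusted p = 0.624) did not pass. The deeper pair is labelled shG8d at these genes except BTN3A3, which is shG8d-specific and where it is labelled shNC. These genes were named after their values were seen, and no test set the family apart. The median of the 16 was −0.56, −0.51, −0.51 and −0.41 without deeper A, deeper B, shallower A and shallower B. Outside the stretch it was 0.08, 0.03, 0.14 and −0.03 in the same fits. With equal totals 10 of the 16 were lower (62.5%), against 29.2% outside the stretch.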
